A study of Mus musculus with 4 samples.

Results

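The transcription factors described here are 10 genes that set or maintain endothelial identity and the blood-brain barrier. They are the ETS factors Erg, Fli1 and Ets1, the SoxF factors Sox7, Sox17 and Sox18, the forkhead factors Foxf2, Foxq1 and Foxc1, and the basic helix-loop-helix factor Tal1. They were chosen by gene symbol, and all 10 were found among the 21578 genes listed in the deposited tables. The study sequenced mRNA of brain endothelial cells from newborn (P0) C57BL/6 mice on the Illumina HiSeq platform, to ask how loss of the immune checkpoint receptor PD-1 in endothelium alters its transcriptome. The controls were Pd1fl/fl mice, which carry floxed Pd1 alleles without Cre (2 libraries), and the knockouts were Pd1cKO-Tie2 mice, which carry the same floxed alleles and Tie2-Cre (2 libraries). No treatment was named. Cells were purified by flow cytometry, and the study's endothelial isolation labelled cerebral cortex cells for CD31 and CD45. The Tie2 promoter is also active in hematopoietic and some myeloid cells, a limit that the study names for this Cre line.

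Transcription factors of these families bind enhancers shared by many vascular genes. ETS factors recognise a GGAA core and are the most general activators of endothelial genes, SoxF factors act in arterial, venous and lymphatic specification, and Tal1 works in a complex with Lmo2, Ldb1, E proteins and GATA factors in blood and endothelial precursors. Foxf2, Foxq1 and Foxc1 are forkhead factors of brain vessels, and Foxf2 and Foxc1 also act in the pericytes and mesenchyme around them. Foxq1, Foxf2 and Sox17 belong to the program that marks barrier endothelium.

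The libraries held 13714374 to 24146115 counts, and the 10 most abundant genes took 6.90% to 8.67% of them. Pdcd1, which encodes PD-1 (ENSMUSG00000026285, chromosome 1, 94038305 to 94052553), was counted 32 times in the first control library, and not at all in the second or in the 2 knockout libraries. Levels are given as CPM, counts scaled to a common library total. A count of 0 leaves room for up to 0.124 to 0.219 CPM here, by unadjusted library totals and for counting error only. By Pdcd1 the second control could not be told from the knockouts, so these counts do not establish the deletion. The 1 control library with Pdcd1 reads also held the neutrophil markers described below. Which cells its Pdcd1 reads came from was not tested. Defining endothelial markers were abundant in every library. Their summed level (Pecam1, Cdh5, Tie1, Tek, Kdr, Flt1, Esam, Egfl7, Emcn and Cldn5) was 10526 and 9597 CPM in the controls against 12458 and 13321 CPM in the knockouts, 1.28-fold higher in the latter, with each of the 10 genes above in both. Markers of other cells were also present. Microglia and macrophage markers summed to 1782 and 2236 CPM against 687 and 1536 CPM, with 7 of 8 genes below in both knockout libraries and no marker of the list at 0 in every library. Radial glia and astrocyte markers summed to 827 and 864 CPM against 546 and 421 CPM, with 6 of 7 genes below. Pd1fl/fl replicate 1 stood apart by its neutrophil markers (740 CPM against 0.634 to 1.88 CPM in the other libraries), and it also had the highest pericyte sum (5717 CPM against 3736 to 3848 CPM). In such bulk samples, fewer cells of a type and less RNA per cell cannot be told apart.

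Promoter sequence is shown for Erg, Foxf2 and Foxc1. The first 2 were picked because both knockouts lay above both controls in CPM. Foxc1 was picked for its negative log2 fold change, although its genotypes overlapped. The ETS core was marked because it is the best defined binding word of these families. The windows run from 250 bases before to 50 bases after an annotated start (RefSeq, GRCm38.p6), and capitals mark GGAA on either strand (GGAA or TTCC). The Erg window is chr16:95586544-95586843 on the minus strand, the Foxf2 window is chr13:31625566-31625865 on the plus strand, and the Foxc1 window is chr13:31806396-31806695 on the plus strand.
Erg: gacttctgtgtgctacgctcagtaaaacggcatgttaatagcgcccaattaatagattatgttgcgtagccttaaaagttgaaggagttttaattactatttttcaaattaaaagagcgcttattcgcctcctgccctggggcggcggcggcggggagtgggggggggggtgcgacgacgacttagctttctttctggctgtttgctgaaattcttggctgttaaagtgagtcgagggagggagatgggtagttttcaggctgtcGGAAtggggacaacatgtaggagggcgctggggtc
Foxf2: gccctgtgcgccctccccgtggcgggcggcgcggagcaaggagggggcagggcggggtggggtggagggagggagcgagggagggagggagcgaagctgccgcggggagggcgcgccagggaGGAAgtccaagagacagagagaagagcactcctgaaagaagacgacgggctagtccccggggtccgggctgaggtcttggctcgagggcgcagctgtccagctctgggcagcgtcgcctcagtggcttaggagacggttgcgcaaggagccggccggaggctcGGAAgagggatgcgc
Foxc1: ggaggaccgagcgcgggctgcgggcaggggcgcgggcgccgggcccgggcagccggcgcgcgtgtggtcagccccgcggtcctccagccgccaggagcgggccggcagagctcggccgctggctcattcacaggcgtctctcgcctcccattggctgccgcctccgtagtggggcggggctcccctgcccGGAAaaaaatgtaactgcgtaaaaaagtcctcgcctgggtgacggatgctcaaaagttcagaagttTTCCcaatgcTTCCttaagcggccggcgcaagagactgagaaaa
For Erg and Tal1 the table held further windows, at other annotated starts, and for these genes the one at the gene start is meant. The Erg window held 1 ETS core, the Foxf2 window 2 and the Foxc1 window 3, against a median of 3 over 32851 windows of the same length, 96.0% of which held at least 1. The window at the Tal1 gene start (chr4:115056176-115056475, plus strand) held 4. None of these 4 windows held the forkhead word TAAACA, searched on both strands and present in 13.4% of all windows, and that of Tal1 held 1 GATA word AGATAA, present in 11.2%. Of the further windows, 2 for Erg and 1 for Tal1, the Erg windows held 4 and 2 ETS cores, the second of them also 1 forkhead and 1 GATA word, and the Tal1 window held 4 ETS cores. These matches are letters in a window and not measured binding. Of the 10 factors, 4 had a window in the table used.

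None of the 10 factors passed the study's criterion of at least a 2-fold change with an unadjusted p of 0.05 or less (edgeR quasi-likelihood test), which 4.02% of the 15909 genes tested did (640 genes). All 10 were abundant enough to be tested. With TMM scaling, values of 8 factors were higher in Pd1cKO-Tie2 than in Pd1fl/fl, against 4 when scaled to endothelial markers, and in 6 of them (Erg, Ets1, Sox17, Sox18, Foxf2 and Tal1) both knockout libraries lay above both controls. Over all genes this was so for 17.7%, and the opposite order, which no factor showed, for 18.1%. Their median log2 fold change was 0.30, against -0.0038 over all genes tested. Only Sox17 had an unadjusted p under 0.05, as did 6.39% of all genes. After Benjamini-Hochberg adjustment 0% of all genes passed 0.05 by edgeR (0 genes, against 1016 at an unadjusted p under 0.05), also 0 by limma-voom and 114 by DESeq2, none of them a factor described here. These p-values measure the spread between 2 libraries a genotype, which the sources used here do not describe as separate animals.

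**Figure D1:**
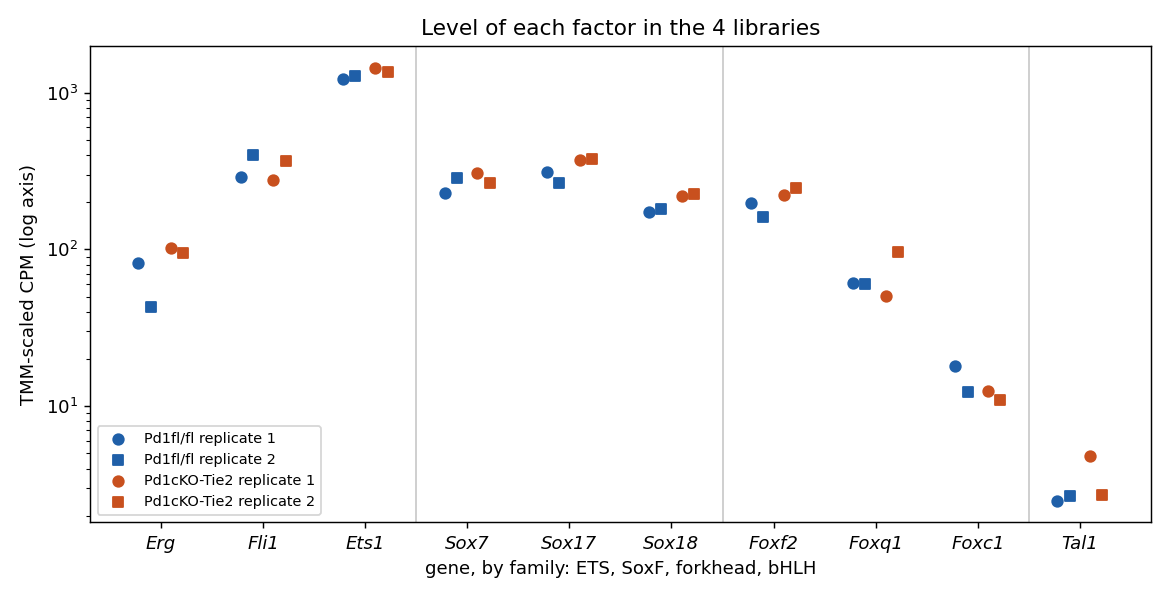
Level of each factor in CPM after TMM scaling (log axis) in the 2 Pd1fl/fl libraries (blue) and the 2 Pd1cKO-Tie2 libraries (orange), 1 point a library, with the genes ordered by family. Ets1 lies above 1000 CPM in all 4 libraries, Tal1 below 5 CPM, and both Pd1cKO-Tie2 points lie above both Pd1fl/fl points for 6 genes.

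Levels were compared between genes only after division by length, as CPM per kilobase of merged exons. By this measure Ets1 was the highest (155.7 ± 11.8, SD, n = 4 libraries), followed by Sox18 (122.9 ± 16.2), Fli1 (95.6 ± 16.7), Foxf2 (87.4 ± 15.6), Sox7 (82.3 ± 10.2) and Sox17 (69.4 ± 11.3). Erg (23.3 ± 7.64), Foxq1 (13.8 ± 4.18), Foxc1 (2.31 ± 0.541) and Tal1 (0.725 ± 0.250) were lower. The ranges over the 4 libraries did not overlap between Ets1 and Sox18, between Sox17 and Erg, a 2.99-fold step in the mean, between Foxq1 and Foxc1, a 5.99-fold step, or between Foxc1 and Tal1, a 3.18-fold step. The ranges of the other neighbours in this order overlapped. Sox18 (106.9 to 138.6) overlapped with Fli1 but lay above the highest values of Foxf2 (103.9), Sox7 (93.1) and Sox17 (79.4). Within each of the 4 libraries Sox7 was above Sox17 and Erg above Foxq1, but Sox7 and Sox17 were nearly equal in Pd1cKO-Tie2 replicate 2 (79.9 and 79.4). Exon lengths were those of GENCODE M21, in which Sox7, alone of the 10, has another position than in the deposited data.

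Of the 10 factors, 6 stood among the 50 most abundant transcription factors of these libraries per length. Among 838 tested genes whose deposited function terms name transcription factor activity, Ets1 ranked 7, Sox18 ranked 9, Fli1 ranked 12, Foxf2 ranked 13, Sox7 ranked 14 and Sox17 ranked 18 per length. Erg ranked 63 and Foxq1 ranked 109, while Foxc1 (490) and Tal1 (717) lay far down the order. The median over these 838 genes was 2.99 CPM per kilobase, above the level of Foxc1 and of Tal1. Of the 838 genes, 38 passed the criterion and 15.3% had both knockout libraries above both controls, with a median log2 fold change of -0.097.

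Among the ETS factors, the summed level was 1588 and 1708 CPM in the control libraries against 1824 and 1814 CPM, a 1.10-fold difference. Ets1 (ENSMUSG00000032035, chromosome 9, 32636221 to 32757820, plus strand), an activator shared by endothelial and lymphoid cells, made up most of it. Its level was 1215 and 1266 CPM in the controls and 1443 and 1353 CPM in the knockouts. The groups did not overlap, and the log2 fold change was 0.17 (SE 0.11, 95% interval -0.09 to 0.44, adjusted p = 0.944).

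Erg (ENSMUSG00000040732, chromosome 16, 95359169 to 95586593, minus strand) maintains endothelial identity and junctions in the adult vessel. Its counts were 1173 and 613 in the controls and 2454 and 1299 in the knockouts, or 81.4 and 43.2 CPM against 102.7 and 95.1 CPM. Both knockouts were above both controls, and Pd1fl/fl replicate 2 was far below the other 3 libraries. The controls differed from each other 1.88-fold. The log2 fold change of 0.67 was the largest of the 10 and had an SE of 0.33 (95% interval -0.16 to 1.49, adjusted p = 0.883). Without Pd1fl/fl replicate 1 it became 1.20, the 1 setting in which a factor passed the criterion, and without Pd1fl/fl replicate 2 it fell to 0.29.

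Fli1 (ENSMUSG00000016087, chromosome 9, 32422204 to 32542861, minus strand), which acts early in blood and endothelial development and stays on in megakaryocytes and other blood cells, lies 93.4 kb from Ets1. Its level was 290.9 and 398.5 CPM in the controls against 278.0 and 366.2 CPM, with a log2 fold change of -0.10 (SE 0.22, 95% interval -0.65 to 0.45). The genotypes overlapped, and in each the second library was the higher. Microglia and macrophage markers were also higher in the second library of each genotype (2236 against 1782 CPM and 1536 against 687 CPM). Their part in the Fli1 values was not tested.

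The make-up of the ETS group varied between libraries, within as well as between genotypes. Per exon length, Erg was 9.38% and 4.51% of the 3 genes in the controls but 10.6% and 9.40% of them in the knockouts. Ets1 held 54.1% to 60.9% in every library. The count ratio of Erg to Fli1 was 0.280 and 0.108 in the controls and 0.369 and 0.260 in the knockouts, so the low value was again Pd1fl/fl replicate 2.

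The summed level of the SoxF factors was 711 and 731 CPM against 898 and 867 CPM, a 1.22-fold difference with no overlap. Sox17 (ENSMUSG00000025902, chromosome 1, 4490931 to 4497354, minus strand), which promotes arterial fate and acts with Wnt and Notch signals in vessels, was counted 4459 and 3763 times in the controls, and 8879 and 5175 times in the knockouts. Scaled, these were 309.3 and 265.1 CPM against 371.6 and 379.0 CPM. The controls differed more from each other than the knockouts did, and the groups did not overlap. The log2 fold change was 0.39 (SE 0.15, 95% interval 0.017 to 0.755, adjusted p = 0.753), below 2-fold. The unadjusted p stayed under 0.05 in 7 of 13 alternative fits. An overlapping gene on the opposite strand, Gm37587, shares 804 of its exon bases and had 0, 55, 34 and 0 counts in the same library order.

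Sox18 (ENSMUSG00000046470, chromosome 2, 181669836 to 181671640, minus strand), which starts lymphatic specification and is mutated in a syndrome of hair and vessel defects, had 173.2 and 179.9 CPM in the controls against 218.8 and 224.6 CPM. Within each genotype the libraries were nearly equal, and the gap between genotypes was larger than either spread. The log2 fold change was 0.33 (SE 0.15, 95% interval -0.04 to 0.70, adjusted p = 0.849). Sox7 (ENSMUSG00000063060, chromosome 14, 63943674 to 63950732, plus strand), which overlaps in function with Sox17 and Sox18 in vessel growth, had 228.8 and 285.8 CPM against 307.3 and 263.5 CPM. Its groups overlapped, with a log2 fold change of 0.15 (SE 0.18, 95% interval -0.30 to 0.60), which was 0.0016 without Pd1fl/fl replicate 1, 0.045 without Pd1cKO-Tie2 replicate 1, 0.32 without Pd1fl/fl replicate 2 and 0.26 without Pd1cKO-Tie2 replicate 2. Per exon length, Sox18 held 43.9% to 46.5% of the SoxF counts in all 4 libraries, while Sox7 ranged from 26.8% to 34.2% and Sox17 from 21.9% to 26.9%.

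The forkhead factors lie together on chromosome 13, with Foxq1 64.8 kb from Foxf2 and Foxf2 175.2 kb from Foxc1. Foxf2 (ENSMUSG00000038402, 31625816 to 31631403, plus strand, with 98 exon bases shared with the opposite-strand Gm27516), needed for pericyte and vessel development in the brain, had 197.4 and 159.7 CPM in the controls against 223.1 and 245.6 CPM. Both knockouts were above both controls, and the log2 fold change was 0.39 (SE 0.18, 95% interval -0.05 to 0.83, adjusted p = 0.847). Without Pd1fl/fl replicate 1 it was 0.56, with an unadjusted p under 0.05, and without Pd1fl/fl replicate 2 it was 0.25.

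Foxq1 (ENSMUSG00000038415, 31556134 to 31560976, plus strand), a factor enriched in barrier endothelium, had 60.9 and 60.3 CPM in the controls and 50.2 and 96.4 CPM in the knockouts. The controls were nearly equal, whereas the knockout libraries lay on either side of them. The log2 fold change of 0.27 (SE 0.35, 95% interval -0.58 to 1.13) became -0.27 without Pd1cKO-Tie2 replicate 2 and 0.68 without Pd1cKO-Tie2 replicate 1, so its sign rested on a single library. An opposite-strand gene, A530084C06Rik, overlaps 3200 of its 4843 exon bases, and the sources used here do not say whether counting used strand, so reads of the pair cannot be told apart.

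Foxc1 (ENSMUSG00000050295, 31806633 to 31812476, plus strand), which acts in arterial and perivascular mesenchyme, was the lowest of the 3. The counts were 261 and 174 in the controls and 300 and 150 in the knockouts, or 18.1 and 12.3 CPM against 12.6 and 11.0 CPM. Pd1fl/fl replicate 1 was high and the other 3 libraries were close together, and the log2 fold change was -0.37 (SE 0.44, 95% interval -1.45 to 0.72). That library also held the highest pericyte sum and the highest fibroblast sum (65.3 CPM against 14.9 to 42.3 CPM), whose part in the Foxc1 value was not tested. Without it the log2 fold change was -0.054. The count ratio of Foxf2 to Foxc1 was 10.9 and 13.0 in the controls and 17.8 and 22.4 in the knockouts, with no overlap. That of Foxf2 to Foxq1 was 3.24 and 2.65 against 4.45 and 2.55, with overlap. With 2 libraries against 2, a lack of overlap in 1 ratio carries little weight.

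**Figure D2:**
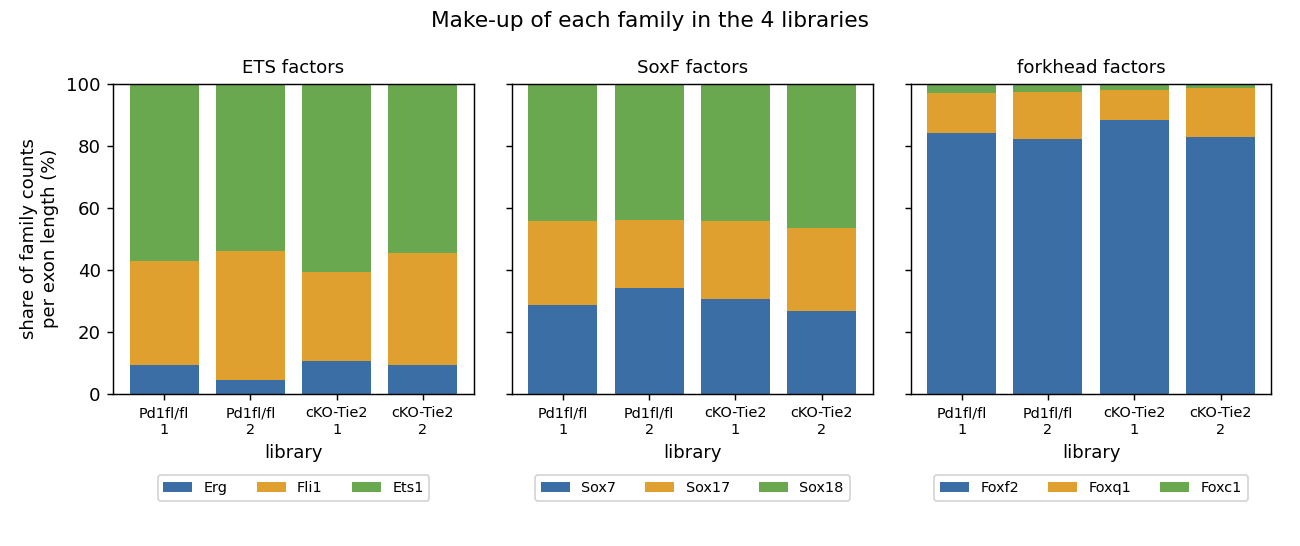
Share of each gene in its family's counts per exon length (percent) in the 4 libraries, stacked to 100%. Sox18 holds about the same share of the SoxF bar in every library, while the Erg part of the ETS bar is smallest in Pd1fl/fl replicate 2 (4.51%).

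Tal1 (ENSMUSG00000028717, chromosome 4, 115056426 to 115071755, plus strand), a master factor of blood and endothelial precursors, was the lowest of the 10. Its reads numbered 36 and 38 in the controls and 115 and 37 in the knockouts, or 2.50 and 2.68 CPM against 4.81 and 2.71 CPM. The second knockout library was only 1.01 times the higher control, so the lack of overlap rested on a margin far below the counting error of such counts. The log2 fold change was 0.54 (SE 0.95, 95% interval -1.82 to 2.90), and it was 0.077 without Pd1cKO-Tie2 replicate 1 and 0.90 without replicate 2.

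Among 9 partners of Tal1 fixed as a list, 2 passed the criterion, both with lower values in the knockouts, and 3 had an unadjusted p under 0.05, beside 4.02% and 6.39% of all genes. Gata1, the GATA factor of erythroid and megakaryocytic cells, was counted 205 and 200 times in the controls but 94 and 50 times in the knockouts. Its level was 14.2 ± 0.0933 against 3.80 ± 0.192 CPM (mean ± SD of 2 libraries, here and for the genes that follow). The log2 fold change was -1.90 (SE 0.52, adjusted p = 0.735). Runx1, a regulator of hematopoiesis that microglia also express, had 26.9 ± 8.50 CPM against 7.45 ± 1.42 CPM (log2 fold change -1.85, adjusted p = 0.735). Beside these, microglia and macrophage markers had a median log2 fold change of -1.08, and megakaryocyte and platelet markers summed to 107.7 and 99.0 CPM against 85.5 and 87.7 CPM, where 1 of 4 genes, Itga2b, was below in both knockouts (75.5 and 74.6 against 56.5 and 56.7 CPM). Erythroid markers summed to 638 and 545 against 570 and 1060 CPM. The part of such cells in the Gata1 and Runx1 values was not tested.

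Lmo2, the bridging partner of Tal1 in the complex, had the opposite direction. Its counts were 1166 and 879 in the control libraries but 3247 and 1938 in the others, or 71.4 ± 13.4 against 138.9 ± 4.28 CPM. Both knockouts were well above both controls, and the log2 fold change of 0.96 (SE 0.21, adjusted p = 0.735) came just short of 2-fold. It passed the criterion without Pd1fl/fl replicate 1 (1.17) and without Pd1cKO-Tie2 replicate 1 (1.00). By DESeq2, an alternative, its adjusted p was 0.0384. It was 0.61 when scaled to the endothelial markers. Lyl1, the closest relative of Tal1, had 21.4 ± 4.78 against 16.3 ± 0.103 CPM (adjusted p = 1.00). The list's median log2 fold change was -0.038, and 4 of 9 values were above 0.

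The other endothelial transcription factors, 22 by list and 19 tested, showed no call. None had an unadjusted p under 0.05, and their median log2 fold change was 0.053. Both knockouts were above both controls for 5 (17.7% of all genes) and below both for 4 (18.1%). The smallest p belonged to Elk3, an ETS repressor of vessel growth, at 213 ± 19.0 against 273 ± 28.3 CPM (adjusted p = 0.852). Klf4, a flow-responsive factor, was 92.7 ± 2.14 against 72.9 ± 10.8 CPM (adjusted p = 0.941). Ets2 was 107.9 ± 4.12 against 130.8 ± 4.54 CPM, and the ETS repressor Etv6 was 42.1 ± 2.31 against 32.1 ± 0.949 CPM with no overlap between genotypes in either. Etv2, Foxc2 and Tcf15 were too low to be tested or had no row.

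Of 8 other barrier transcription factors, with TMM scaling, 7 had log2 fold changes above 0, with a median of 0.22 and no call. Both knockouts were above both controls for 5 (17.7% of all genes) and below both for 0 (18.1%). With marker scaling, 3 of the 8 were above 0. Then 2 had both knockouts above both controls (5.82% of all genes) and 2 had both below (40.5%). Nr3c1, the glucocorticoid receptor, which tightens endothelial junctions, had 120.8 ± 7.39 CPM against 180.4 ± 3.44 CPM (log2 fold change 0.58, adjusted p = 0.735). It was the 1 gene of this list with an unadjusted p under 0.05, which it no longer had with marker scaling (log2 fold change 0.22) or without Pd1fl/fl replicate 1 (0.52), Pd1cKO-Tie2 replicate 1 (0.57) or Pd1cKO-Tie2 replicate 2 (0.60). Ppard, a lipid-sensing nuclear receptor, had 12.3 ± 2.11 against 19.8 ± 1.76 CPM, and Zfp551 had 6.47 ± 1.01 against 10.8 ± 0.599 CPM, both without overlap between genotypes. Ctnnb1, which encodes the Wnt effector beta-catenin, had 265.2 ± 53.6 against 317.0 ± 68.1 CPM, with overlapping groups.

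Of 18 genes known as targets of these factors, with TMM scaling, 17 had log2 fold changes above 0, 12 had both knockouts above both controls (17.7% of all genes) and 8 had an unadjusted p under 0.05 (6.39% of all genes), but none reached 2-fold, and the median was 0.31. The 8 became 7 with RLE, 6 with upper quartile, 4 with library size and 0 with marker scaling. Cldn5, the main claudin of barrier endothelium, was 5145 ± 525 against 6785 ± 315 CPM (log2 fold change 0.40, adjusted p = 0.735). Eng, a TGF-beta co-receptor, was 1202 ± 7.84 against 1542 ± 53.1 CPM. Vwf, the clotting factor stored in endothelial granules, was 522 ± 10.5 against 721 ± 80.1 CPM, and the VEGF receptor Flt1 was 520 ± 27.6 against 683 ± 1.55 CPM. Of these 18 genes, 7 are also among the 10 endothelial markers, so the list and the marker sum are not independent.

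The factors were also set against the endothelial markers, which were themselves 1.28-fold higher in the knockouts. Cldn5, which is also on the target list, was the largest part of the marker sum. It held 5516 of 10526 and 4774 of 9597 CPM in the controls. In the knockouts it held 6562 of 12458 and 7008 of 13321 CPM. Scaling to the marker sum lowers every gene by nearly the same amount, and the median of all genes moved to -0.36. Scaled to the marker sum, 4 of 10 log2 fold changes were above 0, the median was -0.067 and no unadjusted p was under 0.05. As nearly the same amount was taken from every gene, the median of the factors necessarily stood 0.30 above that of all genes on either scale. No factor then had both knockouts above both controls (5.82% of all genes), and 2 had both below (40.5% of all genes). By the same shift the list medians were -0.31 for other endothelial factors, -0.12 for other barrier factors, -0.40 for partners of Tal1 and -0.052 for targets.

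Sox17, Sox18 and Foxf2 varied little between libraries relative to the markers. Per 1000 marker reads, Sox17 had 29.4 and 27.6 reads in the controls against 29.8 and 28.5 reads. Sox18 had 16.5 and 18.7 against 17.6 and 16.9 reads, and Foxf2 had 18.8 and 16.6 against 17.9 and 18.4 reads. The genotypes overlapped for each of these. The SD of the log2 values over the 4 libraries was 0.049 for Sox17 on this scale, against 0.24 in CPM, 0.082 against 0.19 for Sox18 and 0.076 against 0.27 for Foxf2. It was smaller per marker read for 6 of the 10 factors and for 33.0% of 13942 genes with counts in all libraries.

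Erg, Fli1 and Foxc1 varied more, and so did Tal1 (SD 0.40), Foxq1 (0.36), Sox7 (0.26) and Ets1 (0.15). Erg had 7.73 and 4.50 reads per 1000 marker reads in the controls and 8.24 and 7.14 reads in the knockouts, so Pd1fl/fl replicate 2 stayed low and the groups overlapped, with an SD of 0.40 against 0.57 in CPM. Fli1 had 27.6 and 41.5 against 22.3 and 27.5 reads, and Foxc1 had 1.72 and 1.28 against 1.01 and 0.825 reads. On this scale both knockouts were below both controls for Fli1 and Foxc1, with log2 fold changes of -0.47 and -0.71. For Fli1 the margin, 27.5 against 27.6 reads, was below the counting error (1.54% for its smallest count). Pd1fl/fl replicate 2 (41.5 reads) lay far above the other libraries.

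**Figure D3:**
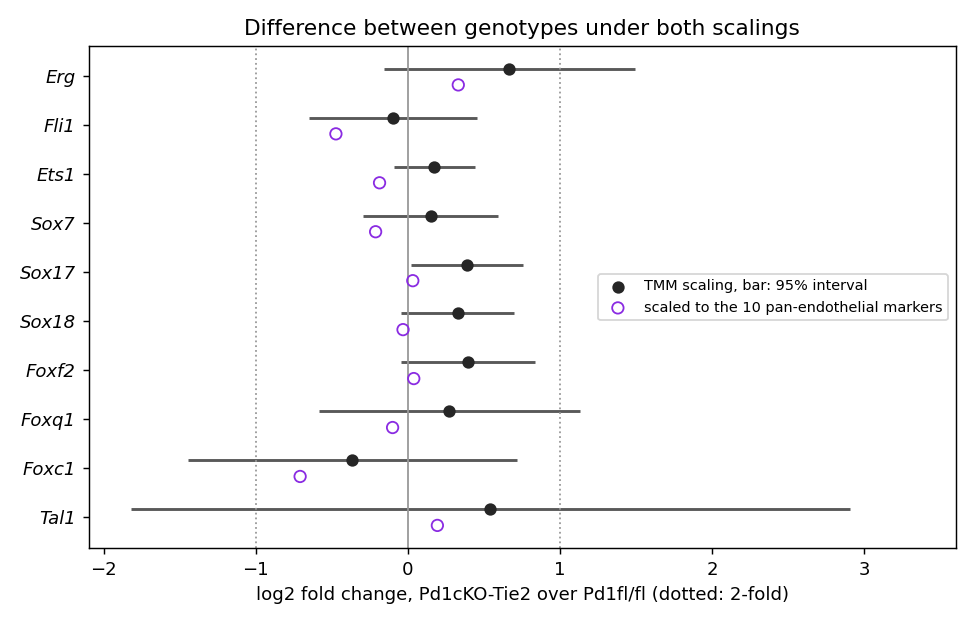
Log2 fold change of each factor, Pd1cKO-Tie2 over Pd1fl/fl, with TMM scaling (filled points, 95% interval as bars) and scaled to the sum of 10 endothelial markers (open points). With TMM scaling the interval of Sox17 alone leaves out 0, and every open point lies to the left of its filled point.

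**Figure D4:**
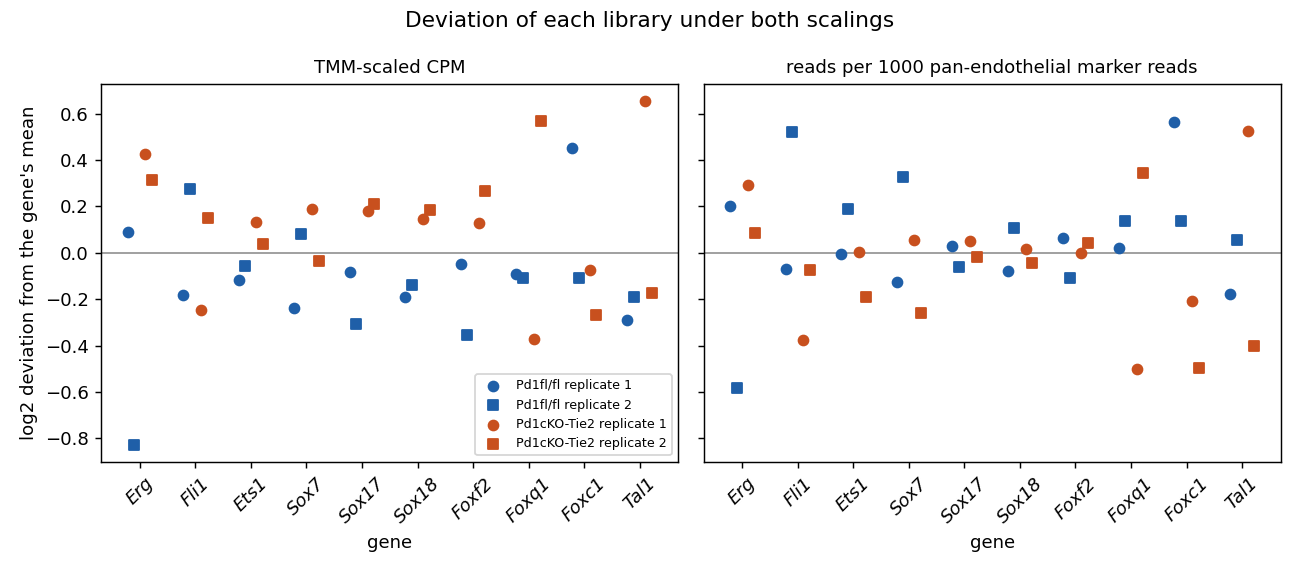
Deviation of each library from the gene's mean on the log2 scale, in TMM-scaled CPM (left) and per 1000 endothelial marker reads (right), with Pd1fl/fl in blue and Pd1cKO-Tie2 in orange. The 4 points of Sox17, Sox18 and Foxf2 draw together on the right, while those of Fli1 and Foxc1 spread.

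The profile of the 10 factors over the 4 libraries, averaged after centring each gene's log2 CPM, was shared most closely by Eif3c, Map4, Sel1l, Nsf and Tvp23b, at Euclidean distances of 0.013 to 0.028. Single factors lay farther from it, Sox18 at 0.14, Ets1 at 0.15 and Sox17 at 0.17, against 0.76 for Erg. With 4 libraries such a likeness is a description only.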

How the data were processed

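Gene counts of P0 brain endothelial cells were taken from the deposited tables, 2 libraries of Pd1fl/fl and 2 of Pd1cKO-Tie2, of 13714374 to 24146115 counts. The authors deposited raw counts per gene beside CPM, fold changes and p-values of pairwise comparisons of libraries; only the counts were used. The submitters' processing notes name Bowtie2 2.2.3, TopHat2 2.0.12, HTSeq 0.6.0 and build mm9, whereas 90.0% of gene positions in the tables equal those of GENCODE M21 on GRCm38, so coordinates are given as in the tables. Each library's counts were the same in every table that held it (71509 values compared, 0 differing), and 5 broken lines in each of 2 tables held no counts. Strand use in counting is not given in the sources used here. The second Pd1cKO-Tie2 column matched a library label by genotype only.

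Counts were filtered by expression, scaled by TMM and tested by edgeR 4.0.16 (R 4.3.3) with Benjamini-Hochberg adjustment over 15909 genes; limma 3.58.1 and DESeq2 1.42.0 were alternatives, with other filters and scalings, the deepest library thinned, and each library left out. The fit was tested on simulated data. With 2 libraries against 2 the smallest exact two-sided permutation p is 0.333, so no such test was run. Besides the 10 factors and Pdcd1, list members were named if past the criterion. Where fewer than 4 passed, those of smallest p were named, up to 4. Cell type markers, genes overlapping a factor and genes of like profile were named as well. The last were the nearest protein-coding genes above a minimum mean level, with predicted genes left out. The factors and lists were chosen with earlier results of these data known. Promoter words were counted in RefSeq windows.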

Additional observations from a re-analysis of the deposited data

How the results depend on the processing

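No factor passed the criterion in the main fit or in any of 13 alternative fits except that without Pd1fl/fl replicate 1, where Erg did, so the count ranged from 0 to 1 when a library was left out. The count with non-overlapping groups was 6, all higher in the knockouts (17.7% of all genes). With library size alone 4 were higher and 1 was lower. The count became 2, both lower in the knockouts, with endothelial marker scaling (40.5% of all genes). These were Foxc1 and Fli1, the latter by a margin below its counting error. The median log2 fold change of the factors, 0.30, was 0.25 with limma-voom, 0.23 with library size alone and -0.067 with marker scaling, and 0.25 to 0.29 with a library left out. Genes past the criterion numbered 640 of all tested and 991 with marker scaling. Marker scaling, which moved the median of all genes to -0.36 by its construction, put Ets1, Sox7, Sox18 and Foxq1 below 0 (log2 fold changes -0.19, -0.21, -0.03 and -0.10). Fli1 turned to 0.15 without Pd1fl/fl replicate 2 and to 0.098 without Pd1cKO-Tie2 replicate 1. The unadjusted p of Sox17 rose above 0.05 with upper quartile, library size and marker scaling (log2 fold changes 0.38, 0.33 and 0.03). Its log2 fold change was 0.28 without Pd1fl/fl replicate 2, 0.41 without Pd1cKO-Tie2 replicate 1 and 0.38 without Pd1cKO-Tie2 replicate 2. The unadjusted p of Erg came under 0.05 with limma-voom (log2 fold change 0.74). In fits with a library left out, the lone library of its genotype was assumed to vary like the others. No paired analysis was possible because the labels of the genotypes share only 1 replicate number.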
